A study of Mus musculus with 42 samples.

Results

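The genes described here were 38 transcripts of oligodendrocytes and of the myelin they build, among them Mbp, Mog, Mag, Mobp, Cnp, Mal, Olig1, Olig2, Sox10 and Myrf, followed through sorted microglia. They were taken by name from the 19151 genes of the deposited expression table, and all 38 were found there. The samples were 42 RNA-seq libraries of microglia (CD11b+ and CD45+ brain cells) from male WT and APP/PS1 mice on the C57BL/6 background, the latter a transgenic line that develops amyloid plaques. The cells had been fixed, stained for Ki67, a nuclear protein of cycling cells, and sorted as Ki67+ or Ki67-, with up to 400 cells per library. At 4 months there were 5 WT Ki67+ and 5 WT Ki67- libraries and 4 APP/PS1 Ki67+ and 4 APP/PS1 Ki67- libraries. At 6 months there were 2 WT Ki67+, 3 WT Ki67-, 2 APP/PS1 Ki67+ and 2 APP/PS1 Ki67- libraries. At 12 months there were 4 WT Ki67+, 3 WT Ki67-, 4 APP/PS1 Ki67+ and 4 APP/PS1 Ki67- libraries. The question was how evenly the 38 transcripts differed between these 12 groups, above all in the 6-month Ki67+ libraries.

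Oligodendrocytes wrap axons in myelin, a stack of membrane held together by proteins such as MBP and sealed by the tight junction protein claudin-11. Its lipids need dedicated enzymes such as UGT8A and FA2H, and the program is set by the transcription factors OLIG1, OLIG2, SOX10 and MYRF. Microglia are the resident phagocytes of the brain, take up myelin debris, and are not the cells that build myelin. Several of the 38 genes are also transcribed in other brain cells. For counting, 23 genes (such as Mbp, Mog, Mag and the 4 transcription factors) were treated as largely restricted to the oligodendrocyte lineage and 15 (such as Enpp2, Car2, Trf, Apod and Sirt2) as more broadly transcribed.

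All values are levels on the deposited log2 scale, from which the authors had removed 10 estimated nuisance components. A difference of 1 is a doubling on that scale. The values are not divided by transcript length, so levels are compared between libraries and not between genes. They ran from 3.074 to 18.35, and the depth of each library could not be read from them. A gene was tested where at least 1 group mean reached 7, which 14910 genes and all 38 oligodendrocyte transcripts did. None of the 38 reached that level in the 6-month Ki67+ groups alone. Tests were moderated linear models (limma), and a gene was called different at an adjusted p (Benjamini-Hochberg over all 14910 genes) under 0.05. The labels do not say which libraries came from separate mice, so p-values measure the spread between libraries. The root mean square difference between libraries of a group was 0.17 to 0.73 in 55 of 59 pairs but under 0.1 in 4 pairs, which joined WT 4-month Ki67- replicates 1 and 2 and the 3 WT 12-month Ki67- libraries with each other. These near-identical libraries make the spread of their groups look small. The fit uses 1 estimate of spread per gene, shared by all 12 groups, so they can lower standard errors in every comparison. That includes comparisons of groups with 2 libraries. Some counts are given also with each such set averaged into 1 library. Others are not, among them those of WT Ki67+ against Ki67- cells at 4 months and of the WT 6-month deviation by Ki67 state. In sorted populations, more cells of a type and more RNA per cell cannot be told apart.

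In the 4 Ki67+ libraries of 6 months nearly every oligodendrocyte transcript was high, in WT and in APP/PS1 mice. Each gene was centred on its mean over the 42 libraries and the 38 centred values were averaged per library. This average was 2.02 and 2.44 in the APP/PS1 6-month Ki67+ libraries and 1.97 and 1.62 in the WT ones. The 3 WT 6-month Ki67- libraries spread widely at 0.60, 0.07 and 1.17, and the APP/PS1 6-month Ki67- libraries lay at -0.38 and -0.40. The means of the 8 groups of 4 and 12 months lay between -0.71 (WT 12-month Ki67+) and -0.02 (WT 4-month Ki67+). In 3 of the 4 Ki67+ libraries of 6 months all 38 genes lay above their own 42-library mean, and in WT replicate 2 it was 37. All 4 of these libraries lay above each of the 17 other Ki67+ libraries for 33 of the 38 genes, against 3.59% of all tested genes, and above each of the 38 other libraries for 23, against 1.66%.

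**Figure D1:**
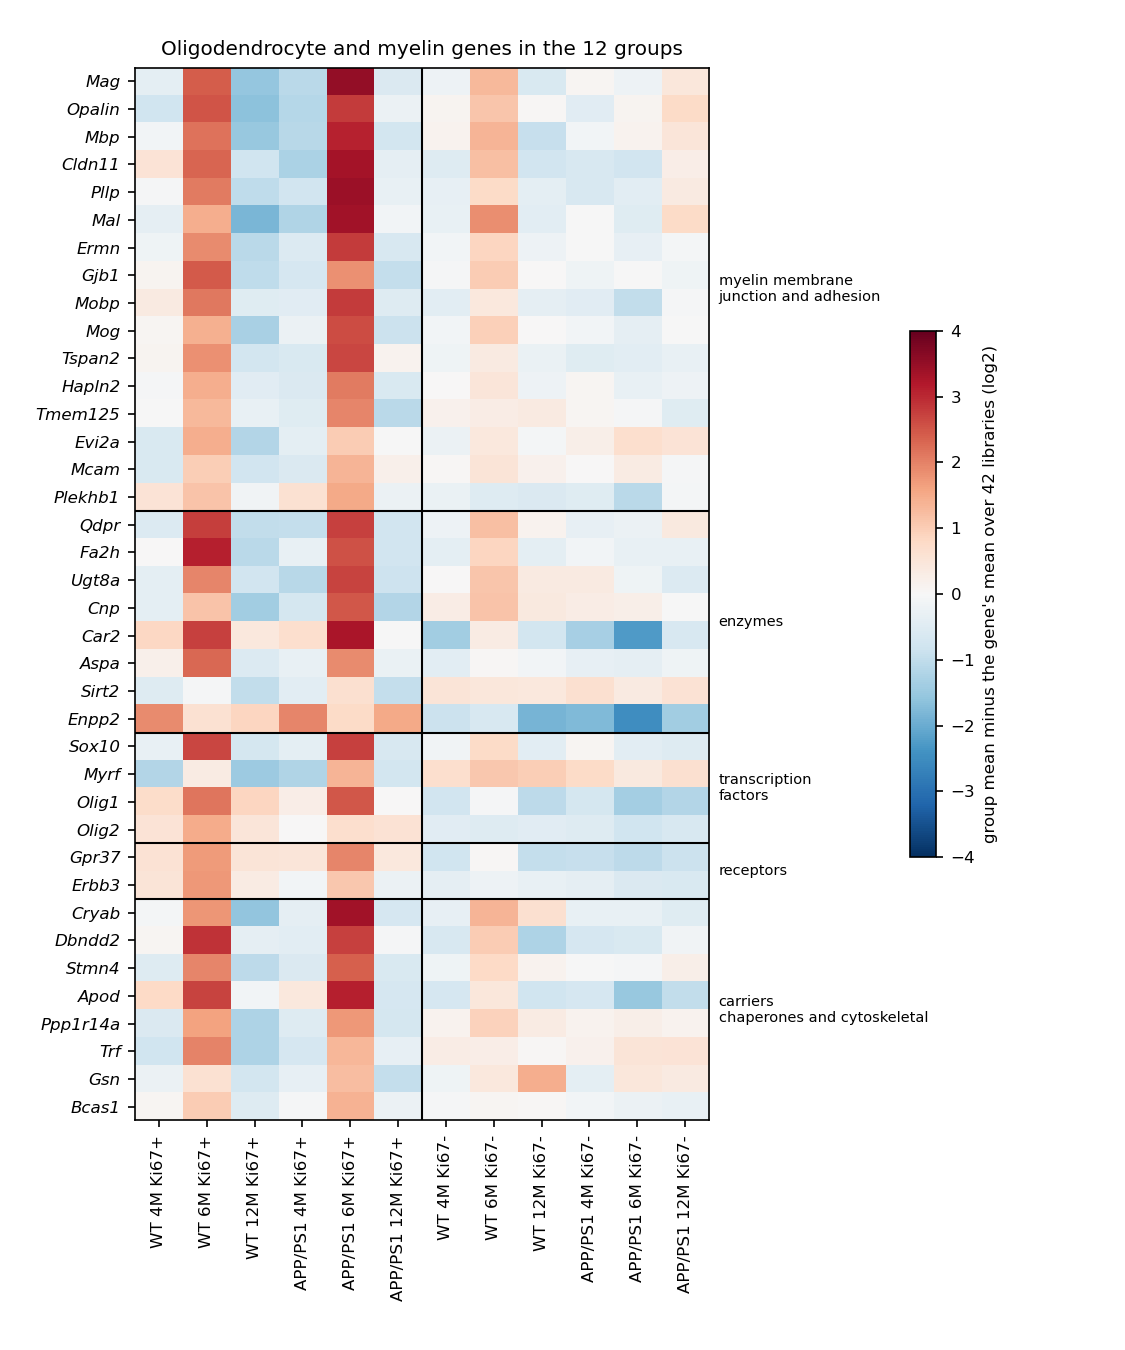
Mean level of each of the 38 genes (rows, ordered by role) in each of the 12 groups (columns), as the log2 difference from the gene's mean over all libraries, with the colour scale ending at -4 and 4. The 6-month Ki67+ columns are high for nearly all rows, and the row of Enpp2 is as high or higher in other Ki67+ columns.

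**Figure D2:**
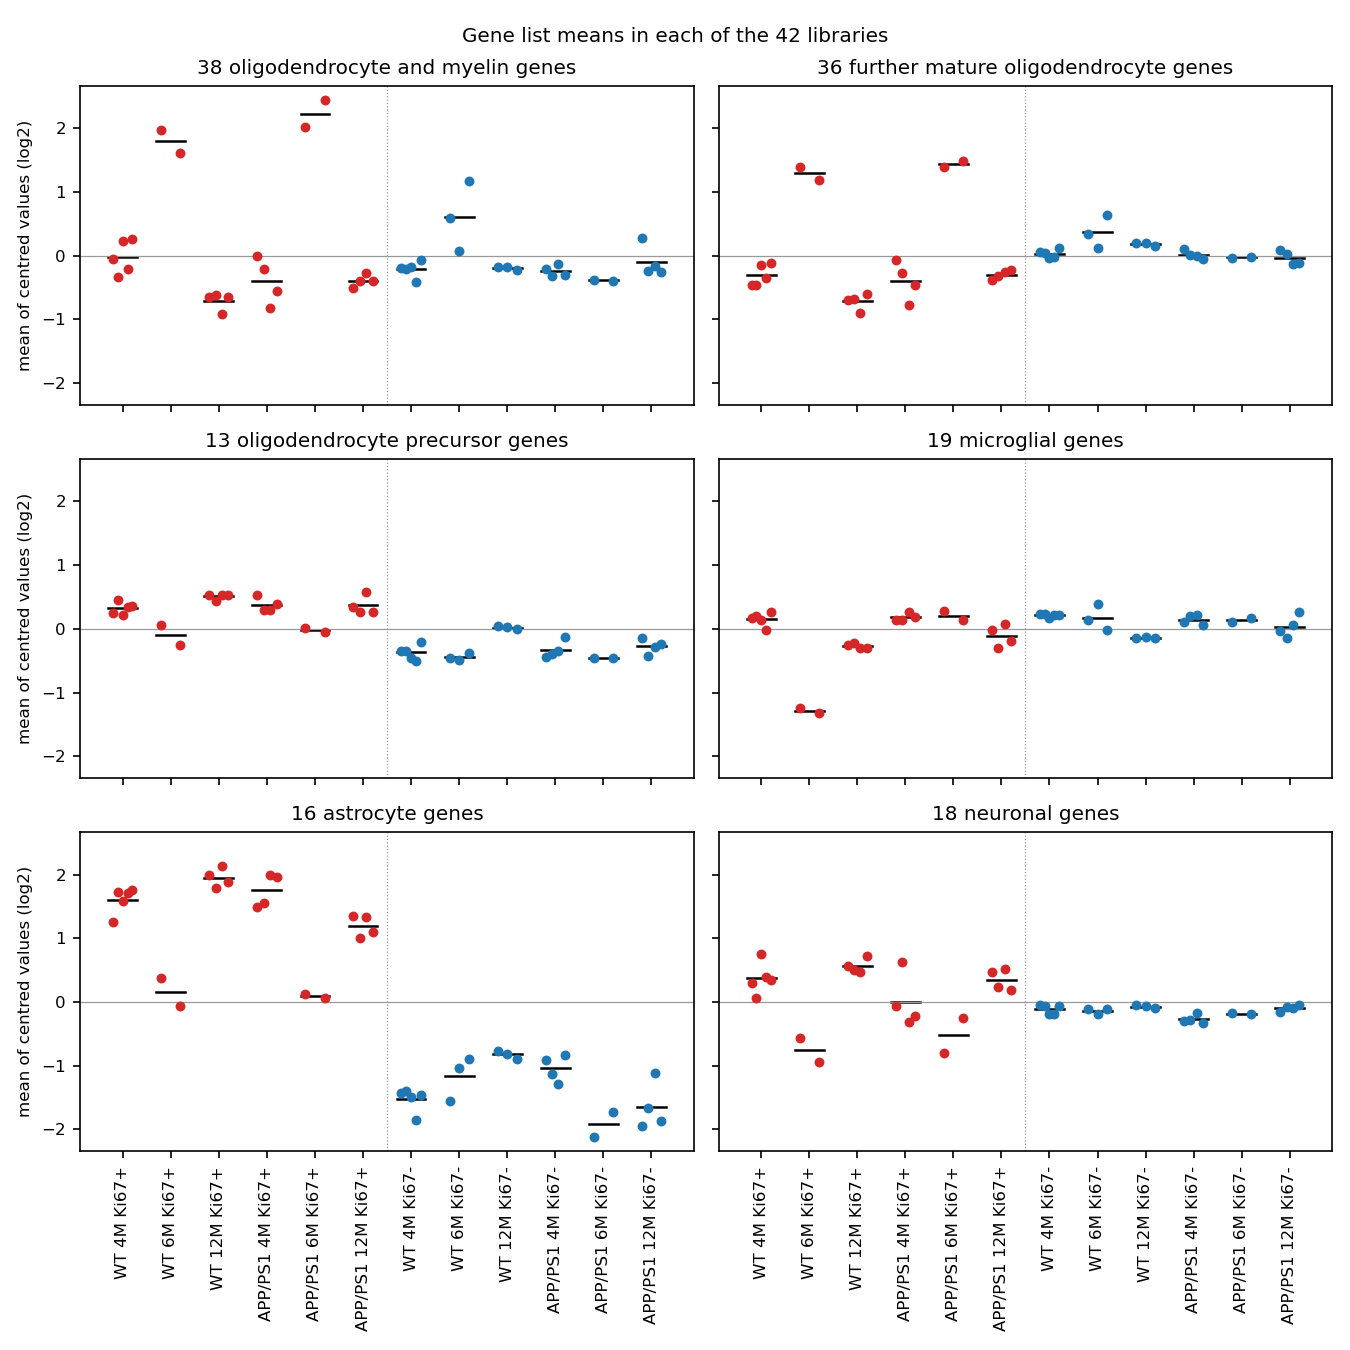
Mean centred log2 level of the 38 genes in each library (points), by group (axis), with a bar at each group mean. The 4 Ki67+ libraries of 6 months lie between 1.62 and 2.44, while 1 WT 6-month Ki67- library reaches 1.17.

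Transcripts of compact myelin showed this plainly. Mbp, which encodes the protein that zips the cytoplasmic faces of the membrane together, stood at 12.74 and 12.36 in the WT 6-month Ki67+ libraries and at 12.98 and 13.93 in the APP/PS1 ones. Its 17 other Ki67+ libraries ran from 7.88 to 11.10 (median 9.49), so the ranges did not overlap. Its Ki67- libraries of 6 months reached 11.97, 10.43 and 12.86 in WT and 10.56 and 10.52 in APP/PS1 mice, so 1 WT Ki67- library lay within the range of the 6-month Ki67+ libraries. Mobp, another protein of compact myelin, reached 11.26 and 10.60 in WT and 11.19 and 12.05 in APP/PS1 6-month Ki67+ libraries, against 7.24 to 9.98 (median 8.48) in the other Ki67+ libraries. Mal, a proteolipid of myelin sorting, reached 10.76 and 10.36 in WT and 11.91 and 13.01 in APP/PS1 libraries of 6 months, against 6.74 to 9.84 (median 8.05). For both genes the 6-month Ki67+ libraries lay above all other Ki67+ libraries with no overlap. The Ki67- libraries reached 10.18 for Mobp, below the 6-month Ki67+ ones. For Mal the WT Ki67- libraries of 6 months stood at 11.21, 9.54 and 12.16, replicates 1 and 3 lying above both WT Ki67+ libraries of that age.

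The surface and adhesion proteins of myelin followed. Mag (chr7:30899176-30914873, minus strand, GRCm38), a lectin that holds myelin to the axon, stood at 11.95 and 11.60 in WT and 12.49 and 13.26 in APP/PS1 6-month Ki67+ libraries. The other Ki67+ libraries ran from 7.20 to 9.65 (median 8.62), so every 6-month Ki67+ library was higher. Mog, on the outermost surface of the sheath, reached 10.18 and 9.55 in WT and 10.53 and 11.55 in APP/PS1 libraries of 6 months, against 6.81 to 9.19 (median 7.73). Cldn11 reached 11.45 and 10.65 in WT and 11.58 and 12.54 in APP/PS1 libraries of 6 months, against 5.77 to 10.01 (median 8.33). Opalin (chr19:41061710-41077113, minus strand), a membrane glycoprotein of mature oligodendrocytes, reached 10.40 and 10.62 in WT and 10.44 and 11.12 in APP/PS1 libraries of 6 months, against 5.31 to 8.09 (median 7.54). None of these 4 genes had a 6-month Ki67+ library within the range of the other Ki67+ libraries. The Ki67- libraries reached 10.16 for Mog and 11.03 for Cldn11, above the lowest 6-month Ki67+ library of each gene. For Mag and Opalin they reached 11.38 and 9.72, below it.

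The same libraries were set against the mean of the 4-month and 12-month groups of the same genotype and Ki67 state, with all 38 genes tested. In WT Ki67+ cells 35 of the 38 transcripts were higher at 6 months and 0 were lower, where 10.4% of all tested genes were called higher and 17.5% lower. Their median difference was 2.35, with a range from -0.76 to 3.74, beside -0.12 for all tested genes. In APP/PS1 Ki67+ cells 36 were higher and 0 lower, with a median difference of 2.92 and a range from -0.97 to 4.35, where 6.62% of all tested genes were called higher and 7.15% lower. The largest differences in WT mice were those of Opalin at 3.74 ± 0.47 (SE, adjusted p = 2.37e-06), Fa2h, which makes the hydroxylated fatty acids of myelin lipid, at 3.65 ± 0.40 (SE, adjusted p = 4.02e-07), and Qdpr, a pteridine reductase, at 3.52 ± 0.32 (SE, adjusted p = 5.26e-08). In APP/PS1 mice they were those of Mag at 4.35 ± 0.38 (SE, adjusted p = 4.63e-08), Cldn11 at 4.15 ± 0.56 (SE, adjusted p = 1.42e-05) and Mbp at 4.00 ± 0.53 (SE, adjusted p = 1.17e-05). Of 38 genes, 28 had their highest Ki67+ group mean in APP/PS1 mice of 6 months and 9 in WT mice of 6 months, the remaining 1, Enpp2, having it in APP/PS1 mice of 4 months. Each arm rests on 2 libraries: without WT 6-month Ki67+ replicate 1 the WT count was 25.

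Taken by role, the genes grouped as myelin membrane, junction and adhesion proteins were higher in 15 of 16 cases in WT and 16 of 16 in APP/PS1 Ki67+ cells, with medians of 2.39 and 3.21. Beside the genes above they held the connexin Gjb1, which couples layers of the sheath, at 2.91 and 2.64 in WT and APP/PS1 mice, Hapln2, a link protein of the matrix at nodes of Ranvier, at 1.72 and 2.69, and the cytoskeletal linker Ermn at 2.50 and 3.37. The tetraspanin Tspan2 stood at 2.15 and 2.91, Pllp (plasmolipin) at 2.62 and 3.95, Tmem125 at 1.46 and 2.73, Mcam at 1.69 and 1.56 and Evi2a at 2.32 and 1.21, and all 8 were called in both genotypes. Tspan2, Mcam and Evi2a among them were counted as more broadly transcribed. The enzymes were higher in 6 and 7 of 8 (medians 2.30 and 3.00). Among them, Cnp, the phosphodiesterase of non-compact myelin, was higher by 2.03 ± 0.45 in WT and 3.43 ± 0.45 in APP/PS1 mice (SE), Ugt8a, the galactolipid synthase, by 2.52 ± 0.46 and 3.65 ± 0.46, and Aspa, which cleaves N-acetylaspartate, by 2.48 ± 0.36 and 2.17 ± 0.36, while Car2, a carbonic anhydrase, differed by 2.12 ± 0.47 and 2.92 ± 0.48. The carriers, chaperones and cytoskeletal proteins were higher in 8 of 8 in both genotypes (medians 2.55 and 2.65). This group held Trf, the iron carrier transferrin, at 3.01 and 1.83, Apod, a lipid-binding lipocalin, at 2.38 and 3.24, and the small heat shock protein Cryab at 2.60 and 3.86. The others of the group were Gsn at 1.08 and 1.88, Ppp1r14a at 2.51 and 2.34, the microtubule-destabilizing Stmn4 at 2.74 and 3.00, Bcas1, a marker of newly myelinating oligodendrocytes, at 1.26 and 1.51 and Dbndd2 at 3.02 and 2.96. Both receptors were higher in both genotypes, Erbb3, a neuregulin receptor, by 1.32 and 1.25 and Gpr37, an orphan G protein-coupled receptor, by 1.14 and 1.52. The lineage-restricted genes were higher in 23 of 23 in WT and 22 of 23 in APP/PS1 mice, and the broader ones in 12 and 14 of 15.

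All 4 transcription factors were called higher in WT mice and 3 of 4 in APP/PS1 mice. Sox10, which switches on myelin genes, stood at 10.45 and 10.02 in WT and 10.25 and 10.37 in APP/PS1 6-month Ki67+ libraries, against 6.42 to 7.73 (median 7.002) in the other Ki67+ libraries, and differed by 3.16 ± 0.35 (SE, adjusted p = 5.03e-07) and 3.27 ± 0.35 (SE, adjusted p = 8.74e-07). Myrf, the regulator of myelin gene expression in mature cells, stood at 8.36 and 7.83 in WT and 9.23 and 9.001 in APP/PS1 libraries of 6 months, against 5.94 to 7.38 (median 6.64). Olig1 stood at 10.86 and 10.12 in WT and 10.56 and 11.05 in APP/PS1 libraries of 6 months, against 7.84 to 9.51 (median 8.69), and was higher by 1.37 ± 0.36 and 2.33 ± 0.37 (SE). Olig2, its partner in specifying the lineage, was the least separated of the 4. It stood at 8.99 and 8.48 in WT and 7.66 and 8.20 in APP/PS1 6-month Ki67+ libraries against 6.85 to 8.44 (median 7.65), so the ranges overlapped. It was higher in WT mice at 0.96 ± 0.34 (SE, adjusted p = 0.0368) and missed the threshold in APP/PS1 mice at 0.38 ± 0.35 (SE, adjusted p = 0.495).

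**Figure D3:**
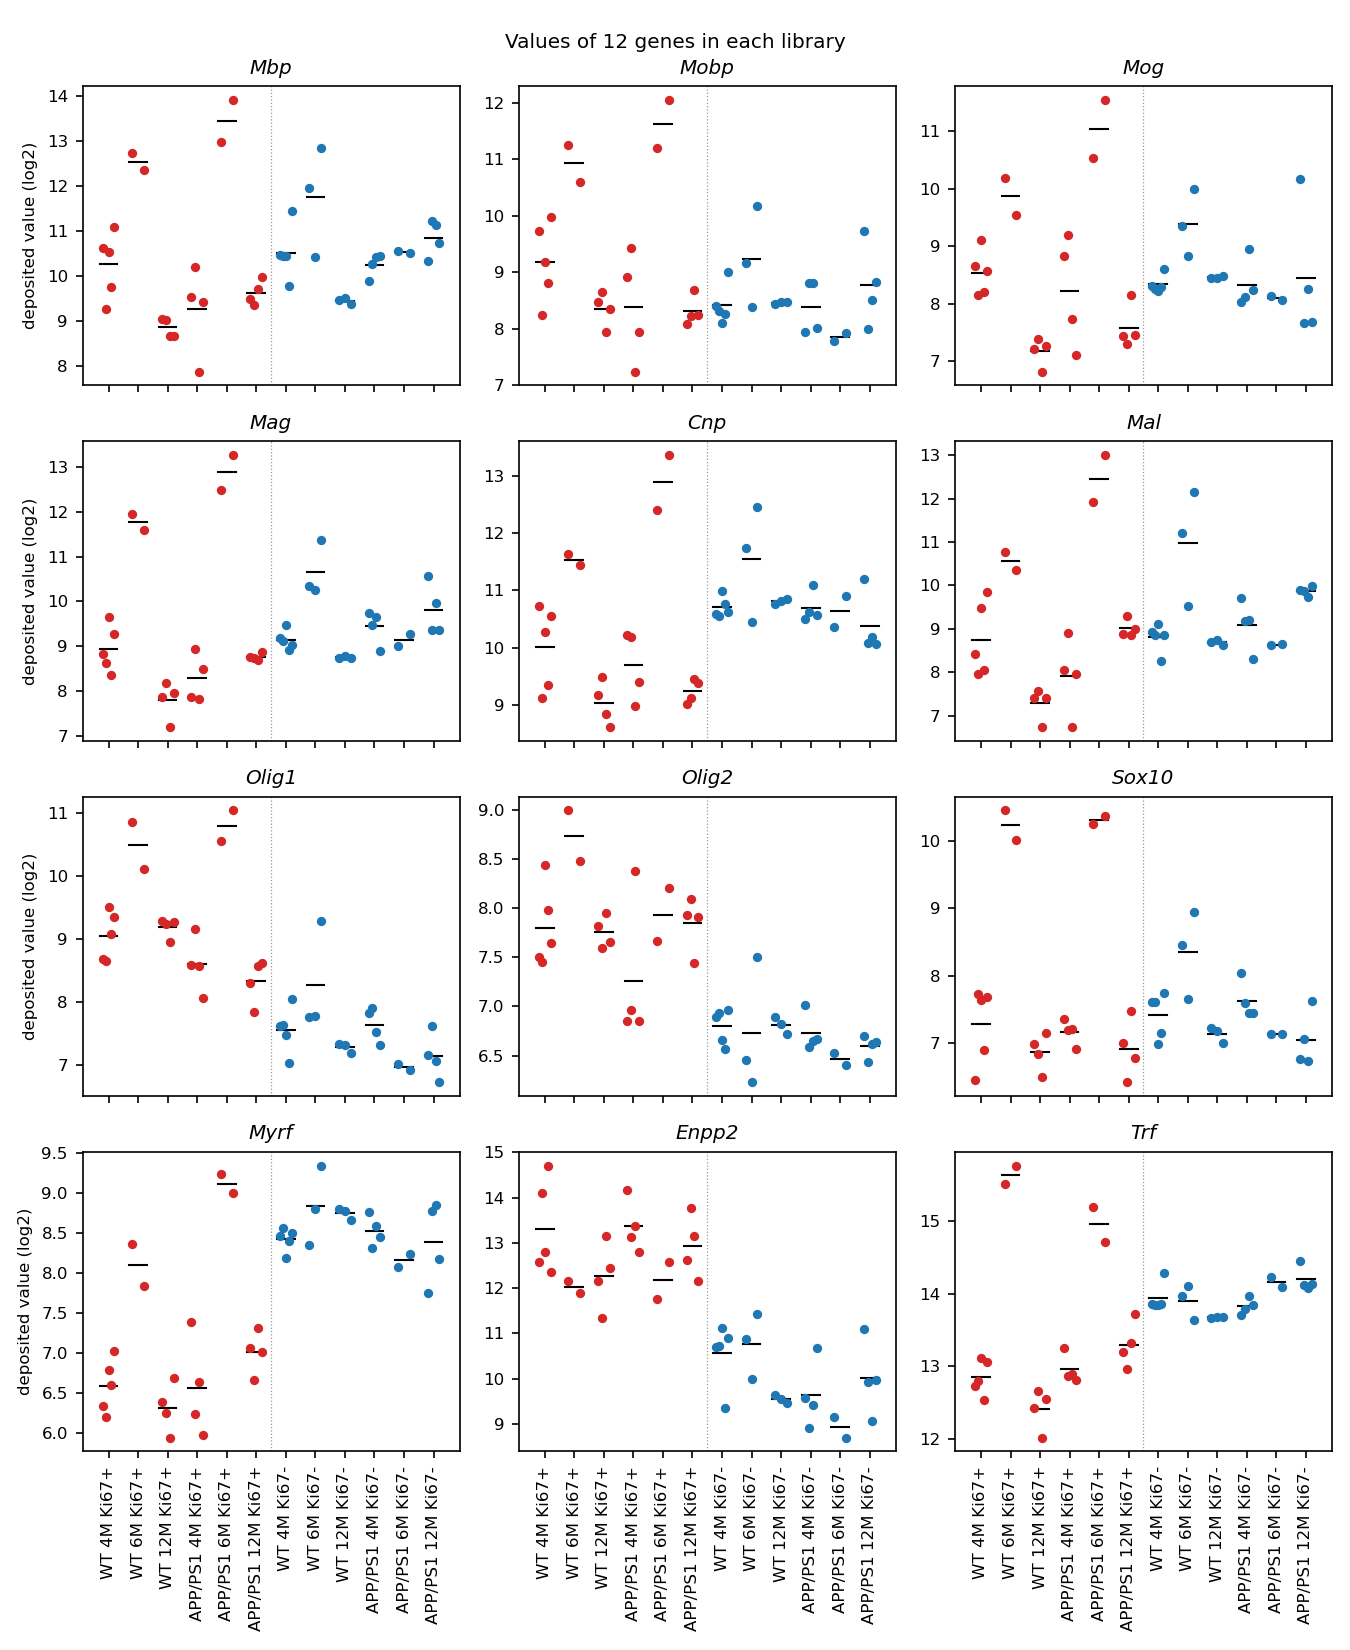
Log2 level in each library (points) of 12 of the 38 genes (panels), by group (axis), with a bar at each group mean. In the panels of Mbp, Mag and Mog the 6-month Ki67+ points lie above all other Ki67+ points, while those of Olig2 overlap them and those of Enpp2 lie within the range of the other Ki67+ libraries.

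Enpp2, Sirt2 and Plekhb1 missed the threshold in WT Ki67+ cells. Enpp2, the secreted enzyme autotaxin that makes lysophosphatidic acid, ran from 11.76 to 12.58 (median 12.03) in the 6-month Ki67+ libraries and from 11.34 to 14.71 (median 12.80) in the other Ki67+ libraries, its 6-month values lying inside that range. Its difference missed the threshold, at -0.76 ± 0.62 (SE, adjusted p = 0.382) in WT and -0.97 ± 0.62 (SE, adjusted p = 0.316) in APP/PS1 mice. Sirt2 (chr7:28766735-28788661, plus strand), a tubulin deacetylase, ran from 9.99 to 10.96 (median 10.73) against 8.91 to 10.26 (median 9.65), and its difference was 0.69 ± 0.26 (SE, adjusted p = 0.0523) in WT and 1.33 ± 0.27 (SE, adjusted p = 0.00131) in APP/PS1 mice. Plekhb1 (chr7:100642892-100662414, minus strand), a pleckstrin homology domain protein, ran from 9.64 to 10.78 (median 10.11) against 8.38 to 9.97 (median 8.96), and differed by 0.95 ± 0.44 (SE, adjusted p = 0.111) and 1.33 ± 0.45 (SE, adjusted p = 0.0463). In both Sirt2 and Plekhb1 the lowest 6-month Ki67+ library lay within the range of the other Ki67+ libraries.

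To set the sequences of strongly and weakly separated genes side by side, the 250 bases before the annotated start are shown for Mag and Opalin, which had the largest mean 6-month difference in Ki67+ cells among the genes whose window could be shown, and for Sirt2 and Plekhb1, which had the smallest. They are RefSeq sequences of the GRCm38.p6 build, read 5′ to 3′ on the strand of the gene, and in these 4 windows up to 20 bases at the 3′ end lie inside the annotated gene. Capitals mark matches to the letters ACAAAG (the core bound by Sox factors), CANNTG (an E-box, the kind of site bound by OLIG proteins) or CTGGCAC (a Myrf motif) on either strand. The windows are at chr7:30914864-30915113, minus strand (Mag), chr19:41077114-41077363, minus strand (Opalin), chr7:28766502-28766751, plus strand (Sirt2) and chr7:100662395-100662644, minus strand (Plekhb1).
Mag: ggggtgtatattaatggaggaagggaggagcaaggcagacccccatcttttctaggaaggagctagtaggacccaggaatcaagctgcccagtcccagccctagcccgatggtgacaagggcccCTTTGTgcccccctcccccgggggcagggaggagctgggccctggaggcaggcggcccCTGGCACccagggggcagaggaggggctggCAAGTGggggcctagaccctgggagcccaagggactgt
Opalin: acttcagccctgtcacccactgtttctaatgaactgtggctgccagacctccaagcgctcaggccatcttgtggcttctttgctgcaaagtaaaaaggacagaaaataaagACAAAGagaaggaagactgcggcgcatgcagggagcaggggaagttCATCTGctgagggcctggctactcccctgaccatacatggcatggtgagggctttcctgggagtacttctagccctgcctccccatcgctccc
Sirt2: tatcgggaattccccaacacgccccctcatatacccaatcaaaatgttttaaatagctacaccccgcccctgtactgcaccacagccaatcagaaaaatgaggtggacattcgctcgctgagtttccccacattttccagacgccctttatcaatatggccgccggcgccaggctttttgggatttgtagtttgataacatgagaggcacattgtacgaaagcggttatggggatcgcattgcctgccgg
Plekhb1: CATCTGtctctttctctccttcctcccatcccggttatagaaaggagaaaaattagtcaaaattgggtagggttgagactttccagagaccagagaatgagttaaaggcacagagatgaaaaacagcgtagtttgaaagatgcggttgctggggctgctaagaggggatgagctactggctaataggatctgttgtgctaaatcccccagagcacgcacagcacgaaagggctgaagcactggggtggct
The Mag window held a match to each of the 3 motifs, the Opalin window a Sox core and an E-box, the Plekhb1 window an E-box, and the Sirt2 window none. RefSeq windows of this kind were used for 24 of the 38 genes and not for the other 14, Mbp among them. The windows used are placed by the RefSeq start. Against the GENCODE annotation 10 of the 24 had more than 30 bases inside the gene. Of these, 3 (Gpr37, Tmem125 and Aspa) lay wholly inside, so the shares below are not all of upstream sequence. The Sox core occurred in 6 of the 24 (25.0%, against 16.5% of 32851 mouse promoters of the same length), the E-box in 17 (70.8% against 66.2%) and the Myrf motif in 3, those of Mag, Cnp and Hapln2 (12.5% against 4.2%). The PU.1 motif GAGGAAGT, bound by that myeloid transcription factor, occurred in 0 of 24, against 2.4% of all promoters. None of the 4 motifs contains another, and a match describes letters and is not a binding site.

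Other lists of cell type markers differed in the same libraries and are given beside these counts. Of all tested genes 10.4% were called higher and 17.5% lower in WT Ki67+ cells of 6 months, and 6.62% and 7.15% in APP/PS1 ones. Of 36 further genes of mature oligodendrocytes, 31 were higher at 6 months in WT and 30 in APP/PS1 Ki67+ cells and 0 were lower. Their mean level was 8.78 to 8.98 in the WT and 8.97 to 9.08 in the APP/PS1 6-month Ki67+ libraries, and at most 8.22 elsewhere. Of 9 oligodendrocyte precursor genes that were tested, such as Pdgfra and Cspg4, 0 were higher, and 5 in WT and 2 in APP/PS1 mice were lower. Of 16 astrocyte genes 13 in WT and 10 in APP/PS1 mice were lower at 6 months, with mean levels of 9.39 to 9.83 and 9.52 to 9.58. In Ki67+ cells of 4 months these levels were 10.71 to 11.21 in WT and 10.96 to 11.46 in APP/PS1 mice. At 12 months they were 11.25 to 11.59 and 10.46 to 10.80. The Ki67- libraries of all ages lay lower, at 7.34 to 8.69. Of 17 neuronal genes 12 and 6 were lower and 1 was higher in each genotype. Of 19 microglial genes 18 were lower in WT 6-month Ki67+ cells, whose mean level was 12.05 to 12.13 against 13.08 to 13.76 in every other group, and 0 were called by limma in APP/PS1 mice (13.51 to 13.65, 3 at an unadjusted p under 0.05). No marker was listed at 0. The part of these lists in the oligodendrocyte result was not tested, and the labels name nothing by which age could be told apart from other features shared by libraries of one age.

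In the Ki67- cells of 6 months the same transcripts behaved less evenly. In WT mice 6 of 38 were higher than the mean of 4 and 12 months and 0 lower (median 0.82), where 1.32% of all tested genes were called higher and 1.28% lower. They were Mal at 2.22 ± 0.47 (SE, adjusted p = 0.0118), Dbndd2, a dysbindin domain protein, at 1.95 ± 0.23 (SE, adjusted p = 4.74e-05), Cldn11 at 1.85 ± 0.48 (SE, adjusted p = 0.0375), Mbp at 1.76, Mag at 1.71 and Qdpr at 1.25. The 3 WT libraries differed among themselves for most of these genes, and least for Qdpr (11.28 to 11.58). Mal stood at 11.21, 9.54 and 12.16 and Mag at 10.34, 10.26 and 11.38, with replicate 3 the highest and replicate 2 the lowest for both. The count of 6 was 1 without replicate 3 and also 1 with the near-identical libraries averaged. In APP/PS1 Ki67- cells 0 of 38 were called by limma in either direction, and 1 had an unadjusted p under 0.05, with a median of -0.17, where 0.00671% of all tested genes were called. Mag stood there at 9.01 and 9.28, within the range of the Ki67- libraries of 4 and 12 months (8.75 to 10.58, median 9.28).

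The difference between Ki67+ and Ki67- cells in this 6-month deviation was itself tested. In WT cells it was larger in Ki67+ cells for 18 of 38 transcripts and smaller for 0 (median 1.33, with 4.27% of all tested genes called larger and 7.06% smaller), led by Trf at 2.91 ± 0.31 (SE, adjusted p = 8.54e-06), Opalin at 2.71 ± 0.62 (SE, adjusted p = 0.00575) and Fa2h at 2.41 ± 0.53 (SE, adjusted p = 0.00427). For APP/PS1 cells the deviation was larger for 31 and smaller for 0 (median 3.05, with 1.59% and 0.597% of all tested genes), led by Mal at 4.85 ± 0.76 (SE, adjusted p = 5.89e-04), Mag at 4.84 ± 0.54 (SE, adjusted p = 2.15e-05) and Cldn11 at 4.73 ± 0.79 (SE, adjusted p = 0.00108). Both counts depended on single libraries: the WT count was 10 without Ki67+ replicate 1 and 8 without replicate 2, and the APP/PS1 count was 16 without Ki67+ replicate 2. The 6-month deviation in Ki67+ cells differed between the genotypes for 1 of the 38, Trf at -1.18 ± 0.33 (SE, adjusted p = 0.0446), where 3.46% of all tested genes were called, and 0 were called when any one of 13 libraries was left out.

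**Figure D4:**
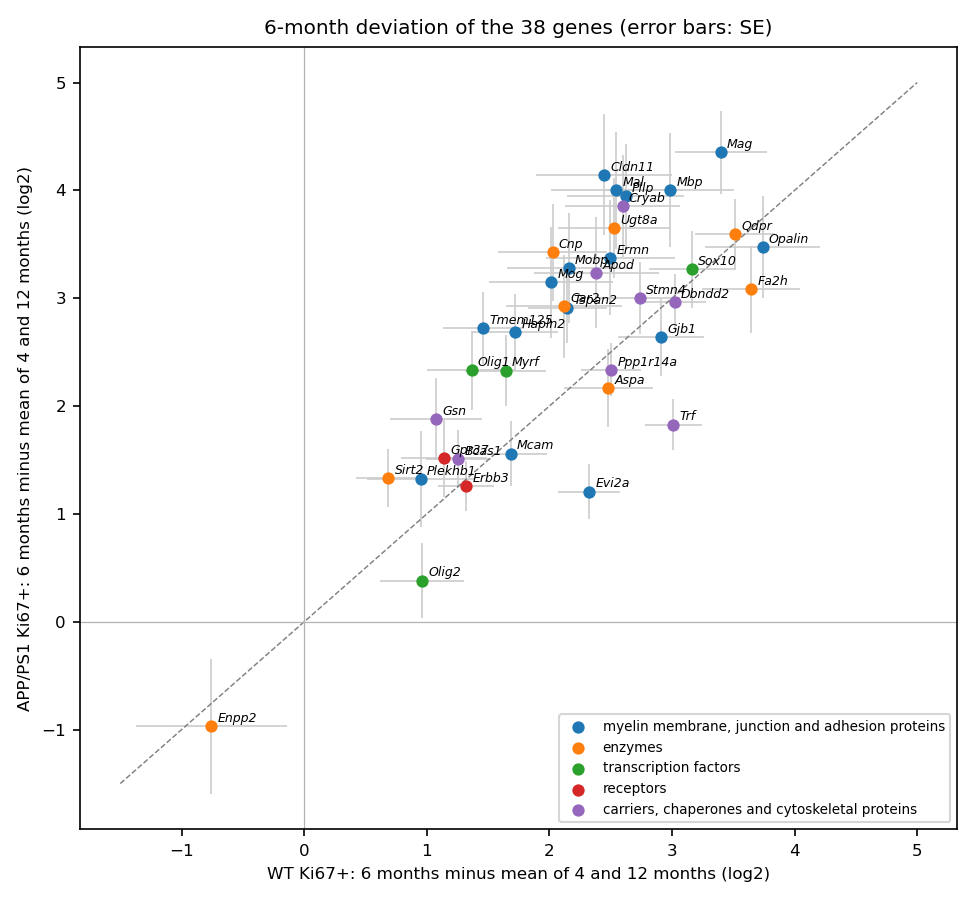
Log2 difference between 6 months and the mean of 4 and 12 months for each of the 38 genes in Ki67+ cells of both genotypes, with standard errors. Nearly all genes lie above 0 in both genotypes, while Enpp2 lies below 0 in both.

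At 4 and 12 months Ki67+ and Ki67- cells differed in both directions. In WT mice of 4 months 8 of the 38 transcripts were higher in Ki67+ cells and 5 lower, against 19.3% and 14.5% of all tested genes. At 12 months 7 were higher and 17 lower, against 26.2% and 20.1%. In APP/PS1 mice the counts were 5 and 7 at 4 months, against 12.3% and 9.24%, and 4 and 8 at 12 months, against 10.6% and 7.24%. The higher counts lay near or below these shares throughout, and so did the lower count in WT mice of 4 months. The other lower counts lay above their shares. The 12-month WT total of 24 was 11 with the near-identical libraries averaged, and the 4-month APP/PS1 total of 12 was 7 without Ki67+ replicate 3. The medians of the 38 were 0.03 and -0.68 in WT and -0.49 and -0.51 in APP/PS1 mice at 4 and 12 months. The APP/PS1 medians were -0.12 without 4-month Ki67+ replicate 3 and -0.26 without 12-month Ki67- replicate 1, and the WT 4-month median ran from 0.0018 to 0.15 with 1 library left out and was -0.11 with library medians subtracted, so it has no settled sign. The APP/PS1 12-month total of 12 was 21 with that age fitted alone.

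Enpp2 ran from 11.34 to 14.71 (median 12.62) over the 21 Ki67+ libraries and from 8.69 to 11.43 (median 9.92) over the 21 Ki67- libraries, and was higher in Ki67+ cells by 2.75 ± 0.50 (SE, adjusted p = 1.42e-04) in WT and 3.72 ± 0.56 (SE, adjusted p = 2.75e-05) in APP/PS1 mice of 4 months, and by 2.72 ± 0.60 and 2.91 ± 0.56 at 12 months. Olig1 was higher by 1.49 ± 0.29 and 1.90 ± 0.35 in WT mice of 4 and 12 months and by 0.96 ± 0.33 and 1.19 ± 0.33 in APP/PS1 mice (SE). Car2 differed by 2.21 and 1.13 in WT and by 2.02 and 0.62 in APP/PS1 mice, and Gpr37 by 1.39 and 1.47 and by 1.41 and 1.28. Of these, the Car2 difference in APP/PS1 mice of 12 months missed the threshold (adjusted p = 0.323). Enpp2, Olig1 and Gpr37 were called higher in all 4 comparisons and Myrf, Sirt2, Trf and Ppp1r14a, an inhibitor of myosin phosphatase, lower in all 4.

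In the other direction, Myrf was lower in Ki67+ cells, with differences of -1.83 ± 0.27 (SE, adjusted p = 9.70e-06) and -2.43 ± 0.32 (SE, adjusted p = 1.47e-06) in WT mice of 4 and 12 months and of -1.97 ± 0.30 (SE, adjusted p = 3.06e-05) and -1.37 ± 0.30 (SE, adjusted p = 0.00218) in APP/PS1 mice. Sirt2 was lower too, with differences of -1.04 ± 0.21 and -1.39 ± 0.26 in WT and of -1.06 ± 0.24 and -1.53 ± 0.24 in APP/PS1 mice (SE). Its 17 Ki67+ libraries of 4 and 12 months ended at 10.26, below the lowest of the 16 Ki67- libraries at 10.59. Among the transcription factors, Olig1 was higher and Myrf lower in the same Ki67+ cells. Of the 16 astrocyte genes 16 were higher in Ki67+ cells at 4 months in both genotypes, and at 12 months 15 of them in WT and 16 in the transgenic mice, and their part in these differences was not tested.

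At 6 months no transcript was called lower in Ki67+ cells. In WT mice 22 of 38 were higher (median 1.22), where 36.8% of all tested genes were called in either direction, and in APP/PS1 mice 32 (median 2.85), where 7.81% were. These comparisons use the same 6-month Ki67+ libraries as the ones above and are no separate evidence. The largest differences in WT mice were those of Car2 at 2.42 ± 0.55 (SE, adjusted p = 0.0012), Apod at 2.27 ± 0.60 (SE, adjusted p = 0.00398) and Fa2h at 2.26 ± 0.46 (SE, adjusted p = 4.44e-04). In APP/PS1 mice they were Car2 at 5.51 ± 0.60 (SE, adjusted p = 2.34e-06), Apod at 4.62 ± 0.65 (SE, adjusted p = 7.20e-05) and Cldn11 at 4.10 ± 0.71 (SE, adjusted p = 4.83e-04). Car2 stood at 13.05 and 12.55 in WT and 12.92 and 13.71 in APP/PS1 Ki67+ libraries of 6 months, and at 10.94, 8.80 and 11.40 and 7.78 and 7.82 in the Ki67- libraries, so the Ki67+ libraries were higher in both genotypes. Those not called in APP/PS1 mice were Sirt2, Evi2a, Gsn, Trf, Myrf and Mcam. The Ki67 difference at 6 months was larger in APP/PS1 than in WT mice for 4 genes, Mal at 4.24 ± 0.92 (SE, adjusted p = 0.0121), Cryab at 3.22 ± 0.81 (SE, adjusted p = 0.027), Car2 at 3.10 ± 0.82 (SE, adjusted p = 0.0349) and Mag at 2.62 ± 0.65 (SE, adjusted p = 0.0264), where 2.33% of all tested genes were called larger. Leaving out 1 library moved this count between 0 and 8. The WT count of 22 was 13 without Ki67+ replicate 1.

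**Figure D5:**
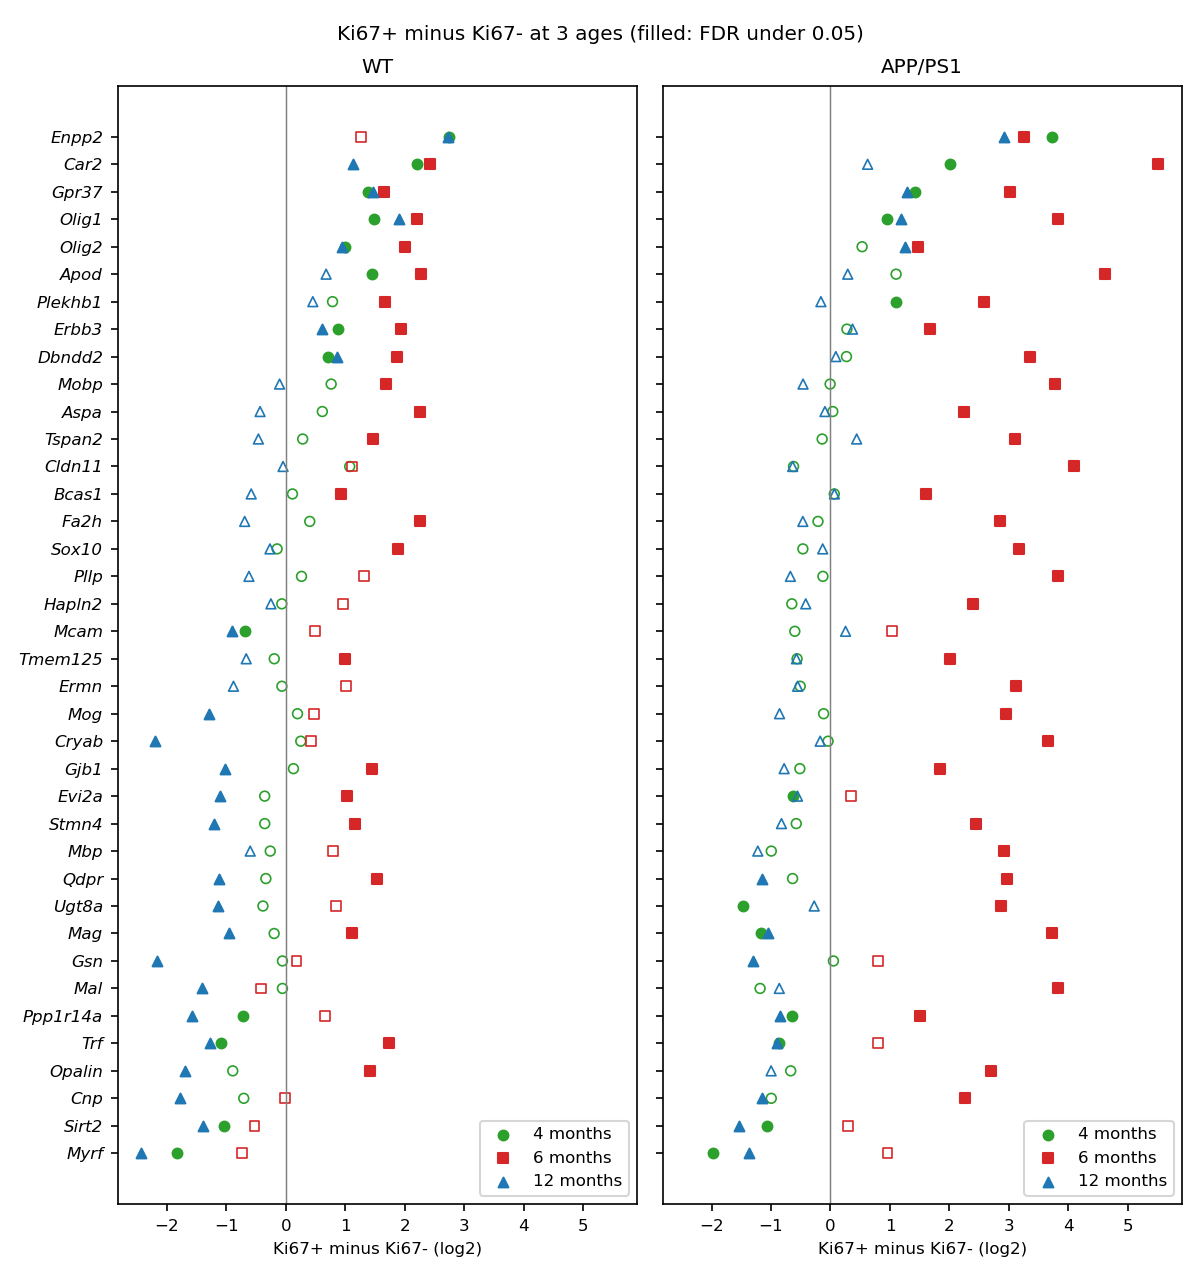
Log2 difference between Ki67+ and Ki67- cells for each of the 38 genes (rows) at 4, 6 and 12 months in both genotypes, with filled points where the adjusted p is under 0.05. Points lie on both sides of 0 at 4 and 12 months, with Enpp2 highest and Myrf among the lowest, and filled points lie only above 0 at 6 months.

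Counts of transcripts called different between the genotypes depended on the fit. In Ki67+ cells 0 of 38 differed between APP/PS1 and WT mice by limma at 4 months and 0 at 6 months, with 7 and 9 at an unadjusted p under 0.05 (medians -0.35 and 0.42), where 0.0268% and 9.87% of all tested genes were called. At 12 months 5 were higher in APP/PS1 Ki67+ cells and 0 lower, against 4.43% of all tested genes called higher and 5.34% lower. They were Mal at 1.73 ± 0.48 (SE, adjusted p = 0.0236), Opalin at 1.40 ± 0.42 (SE, adjusted p = 0.0337), Evi2a, a membrane protein encoded within an intron of Nf1, at 1.17 ± 0.23 (SE, adjusted p = 0.00252), the adhesion molecule Mcam at 0.95 and Trf at 0.89. Mal stood at 8.88, 9.29, 8.86 and 9.001 in the APP/PS1 libraries and at 7.41, 7.56, 6.75 and 7.40 in the WT ones. The count was 1 without APP/PS1 12-month Ki67+ replicate 4, 2 without WT replicate 1 and 2 without APP/PS1 replicate 2, but 14 with the libraries of 12 months fitted alone. With the removed directions not counted as spent, the counts in Ki67+ cells were 2 at 4 months, 7 at 6 months and 12 at 12 months. The calls over all tested genes moved too, from 692 to 1338 for the 12-month comparison with 1 of its libraries left out. Counts from these other fits, and those at an unadjusted p, have no share of all tested genes beside them. A larger count there does not mark out the 38 genes.

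In Ki67- cells 0 of 38 differed by limma at 4 months (1 at an unadjusted p under 0.05), and 0% of all tested genes were called. At 6 months 35 of the 38 differences were negative, with a median of -1.06. The genes vary together, so these signs are not 38 separate observations, and no share of all tested genes stands beside them. The test called only Dbndd2, at -1.64 ± 0.30 (SE, adjusted p = 0.0199), where 0.0134% of all tested genes were called lower. That call was lost without any one of WT replicate 3 and the 2 APP/PS1 libraries, and 3 genes were called without WT replicate 2. At 12 months Dbndd2 at 1.09 ± 0.25 (SE, adjusted p = 0.00384) and Mag at 1.06 ± 0.37 (SE, adjusted p = 0.0486) were higher and the actin-severing protein Gsn at -1.08 ± 0.37 (SE, adjusted p = 0.0447) was lower in APP/PS1 mice, against 16.4% of all tested genes called in either direction. With the near-identical WT libraries averaged this count was 0, with that age fitted alone it was 12, and with the removed directions not counted as spent it was 9, the last fit giving 7 at 6 months. The Ki67 difference was larger in APP/PS1 mice at 12 months for Cryab, at 2.03 ± 0.62 (SE, adjusted p = 0.042) (3.55% called larger, and 0 of the 38 with the libraries averaged), and for 0 of 38 at 4 months by limma (3 at an unadjusted p under 0.05, and 0% of all tested genes called). Between 4 and 12 months the 38 transcripts differed for 1 gene in 1 of the 4 arms, Gsn in WT Ki67- cells at 1.61 ± 0.35 (SE, adjusted p = 0.00393), where 12.2% of all tested genes were called, and for 0 with the libraries averaged. In the other arms limma called 0 of 38, where it called 0.993% of all tested genes in WT Ki67+, 5.41% in APP/PS1 Ki67+ and 4.11% in APP/PS1 Ki67- cells, and 18, 7 and 6 of the 38 had an unadjusted p under 0.05. In WT Ki67+ cells 37 of the 38 differences were negative, with a median of -0.63. The genes vary together, so these signs are not 38 separate observations. No share of all tested genes stands beside the signs or the counts at an unadjusted p.

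The transcripts also varied together over the libraries, less so within groups. The Pearson r of a gene with the mean of the other 37 had a median of 0.85 over the 42 libraries, 0.93 over the 21 Ki67+ and 0.70 over the 21 Ki67- libraries. These are descriptions over libraries that share their groups. Least alike over the 42 libraries were Enpp2 at 0.01, Sirt2 at 0.29, Olig2 at 0.33 and Myrf at 0.43. The mean r between pairs of the 38 genes was 0.75 over the 21 Ki67+ libraries and 0.31 over the 17 of them that were not from 6 months, and 0.37 and 0.077 over the corresponding 21 and 16 Ki67- libraries. Over all tested genes it was near 0 throughout. Over deviations from the group means, the mean r between pairs of the 38 genes was 0.24. The r of a gene with the mean of the others was there -0.53 for Evi2a, -0.084 for Sirt2 and -0.020 for Dbndd2. It ran from 0.067 (Mcam) to 0.85 (Cldn11) for the remaining genes. The first principal component of the 38 genes held 63.9% of their variance and separated the 6-month Ki67+ libraries, and the second held 20.5%, with Enpp2, Car2, Olig1, Gpr37 and Apod at one end and Myrf and Sirt2 at the other. The genes outside the 38 whose 12 group means followed the mean of the 38 most closely were Serpinb1a at r = 0.98 and Sez6l2 at 0.97, and the first 10 also included Slain1, Ptprd, Spock3, Sec14l5, Gng11, Vldlr and Sept04.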

How the data were processed

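RNA-seq libraries of Ki67+ and Ki67- microglia (42 libraries, 12 groups) were analysed from 1 deposited table of 19151 genes, whose 42 sample columns all matched a label (0 unmatched). The authors converted base calls with bcl2fastq 2.20, pseudoaligned read 1 with kallisto 0.43.1 against GRCm38, normalized with DESeq2 and removed 10 surrogate variables, so the deposited values are a score on a log2 scale and not counts. No depth per library, and no interval from it, could be given.

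Group means were fitted with limma 3.58.1 in R 4.3.3, with the 10 directions missing from the table counted as spent (20 residual degrees of freedom), on 14910 genes with a group mean of at least 7 in at least 1 group. 4241 genes were left out. This replaces the study's count model, which the deposited values do not allow. P-values were adjusted by Benjamini-Hochberg over all tested genes at a false discovery rate of 0.05. On simulated data with 200 genes shifted by 2, 187 were recovered for 6 months against 4 and 12 months in WT Ki67+ cells with 7.88% false calls, 173 for Ki67+ against Ki67- in WT mice of 6 months with 4.42%, and 158 for APP/PS1 against WT in Ki67+ cells of 6 months with 7.06%, all among 14910 genes.

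The 38 genes, their roles and the marker lists (further mature oligodendrocyte genes, oligodendrocyte precursors, microglia, astrocytes, neurons, endothelial and mural cells, choroid plexus and ependyma, fibroblasts, other leukocytes, erythroid cells) were chosen with earlier results of these data known. Values in every library were reserved for 10 core genes and for up to 3 called genes per direction and comparison with the largest difference, and the nearest genes outside the 38 were the 10 with the highest r over group means. One of these is not reported here. Alternatives were no filter, libraries of one age alone, each library left out, removed directions not counted, library medians subtracted and, added after seeing the data, near-identical libraries averaged and pairwise r without the 6-month libraries. Gene positions are from GENCODE M21 (GRCm38) and promoters from RefSeq.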

Additional observations from a re-analysis of the deposited data

Results flagged for a closer look

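In groups of 4 or 5 libraries, 77 sets of values of the core genes and of the mean of the 38 genes were examined for a library whose gap to its nearest neighbour was large against the range of the group (Dixon's criterion). 6 met it, where chance gives about 1 in 20. Mog in WT 4-month Ki67- replicate 5 was 8.60, the other 4 libraries lying at 8.22 to 8.30, and Mal in WT 4-month Ki67- replicate 4 was 8.25 against 8.86 to 9.10. That group holds the near-identical replicates 1 and 2. Cnp in APP/PS1 12-month Ki67- replicate 1 was 11.19 against 10.06 to 10.19. Olig1 in WT 12-month Ki67+ replicate 3 was 8.96 against 9.24 to 9.28, and the mean of the 38 centred genes in the same library was -0.91 against -0.66 to -0.62. Olig2 in APP/PS1 4-month Ki67+ replicate 3 was 8.38 against 6.85 to 6.97.

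Effects that differed between groups by a test of the difference itself were also marked. The 6-month deviation differed between Ki67+ and Ki67- cells for 18 of the 38 genes in WT and 31 in APP/PS1 mice, all of them larger in Ki67+ cells, where 4.27% and 1.59% of all tested genes were called larger. It differed between the genotypes in Ki67+ cells for 1, where 3.46% were called. The Ki67 difference itself differed between the genotypes for 4 genes at 6 months, where 2.33% of all tested genes were called larger in APP/PS1 mice, and for 1 at 12 months, where 3.55% were. Each single gene is a smaller share of the 38 than that background, and both counts of 1 fell to 0 when any one of several libraries was left out.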

How the results depend on the processing

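No paired analysis was possible because the labels give each library a number of its own, shared with no other. No called difference reversed its direction under any alternative. Of the medians of the 38 genes, 5 of 26 changed sign, each of them near 0: 12 against 4 months in APP/PS1 Ki67+ cells ranged from -0.25 to 0.10 and in WT Ki67- cells from -0.026 to 0.050 with 1 library left out, APP/PS1 against WT in Ki67- cells from -0.14 to 0.19 at 12 months and from -0.067 to 1.7e-04 at 4 months, and the Ki67 difference in WT mice of 4 months was -0.11 with library medians subtracted (0.0018 to 0.15 with 1 library left out). The counts of 35 and 36 higher transcripts in 6-month Ki67+ cells stayed within 1.5 times under every alternative, and the split of the Ki67 differences at 4 and 12 months kept both directions.

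Leaving out 1 library at a time, the counts of the 38 transcripts called ran from 13 to 22 for Ki67+ against Ki67- in WT mice of 6 months, 7 to 10 in APP/PS1 mice of 4 months, 1 to 4 for APP/PS1 against WT in Ki67+ cells of 12 months, 0 to 3 and 1 to 3 in Ki67- cells of 6 and 12 months, 1 to 8 for the 6-month deviation in WT Ki67- cells, 8 to 20 and 16 to 31 for how far that deviation differed by Ki67 state within WT and within APP/PS1, 0 to 1 for its difference between the genotypes, and 0 to 8 and 0 to 1 for the genotype difference of the Ki67 effect at 6 and 12 months. The medians ran from 0.35 to 0.88 (genotype difference of the deviation), 2.83 to 3.19 and 1.06 to 1.72 (its Ki67 difference in APP/PS1 and WT mice), 2.66 to 3.01, 2.03 to 2.45 and 0.55 to 1.19 (deviation in APP/PS1 Ki67+, WT Ki67+ and WT Ki67- cells), 0.23 to 0.70 and -1.43 to -0.70 (APP/PS1 against WT at 6 months in Ki67+ and Ki67- cells), 0.12 to 0.46 and 1.25 to 1.66 (genotype difference of the Ki67 effect at 12 and 6 months), -0.58 to -0.26, -0.58 to -0.12 and 2.44 to 3.05 (Ki67 difference in APP/PS1 mice of 12, 4 and 6 months) and 1.03 to 1.60 (WT mice of 6 months).

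Fitting the libraries of one age alone gave 21 for the Ki67 difference in APP/PS1 mice of 12 months, 14 for APP/PS1 against WT in Ki67+ cells of 12 months, 0 and 12 in Ki67- cells of 6 and 12 months, and 0 and 7 for the genotype difference of the Ki67 effect at 6 and 12 months. Not counting the removed directions gave 2, 7 and 12 for APP/PS1 against WT in Ki67+ cells of 4, 6 and 12 months, 7 and 9 in Ki67- cells of 6 and 12 months, 19 for the 6-month deviation in WT Ki67- cells, 12, 4, 2 and 2 for 12 against 4 months (WT Ki67+, APP/PS1 Ki67+, WT Ki67-, APP/PS1 Ki67-), 3 for the genotype difference of the deviation, and 15 and 5 for that of the Ki67 effect at 6 and 12 months. Without the filter, 1 was called for APP/PS1 against WT in Ki67- cells of 12 months and 0 for the genotype difference of the Ki67 effect at 12 months. With library medians subtracted, the median Ki67 difference in WT mice of 12 months was -0.90. Averaging near-identical libraries gave 11 for that comparison, 0 for APP/PS1 against WT in Ki67- cells of 12 months, 1 for the 6-month deviation in WT Ki67- cells, 0 for 12 against 4 months in WT Ki67- cells and 0 for the genotype difference of the Ki67 effect at 12 months. Without the 6-month libraries, the mean pairwise r in Ki67+ cells was 0.31. The cause of these changes was not tested, beyond the fewer libraries that some leave.

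The 6-month Ki67+ groups hold 2 libraries each, and depth per library was unknown.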

Other observations

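Genes of several other cell types were also called at 6 months in Ki67+ cells. Of all tested genes 10.4% were called higher and 17.5% lower there in WT mice, and 6.62% and 7.15% in APP/PS1 mice. Of 23 endothelial and mural genes 3 were higher and 9 lower in WT mice and 2 higher and 7 lower in APP/PS1 mice, of 7 choroid plexus and ependymal genes 4 and 3 were lower, of 6 fibroblast genes 1 was lower in each genotype, of 12 genes of other leukocytes 4 and 2 were lower, and of 4 erythroid genes 1 was lower in WT mice. The shares of endothelial and mural genes called higher, and of fibroblast genes called in WT mice, lay near those of all tested genes. In Ki67- cells 0 genes of these 5 lists were called in either genotype by limma (5 in WT and 5 in APP/PS1 cells at an unadjusted p under 0.05). Of all tested genes 1.32% were called higher and 1.28% lower there in WT cells, and 0.00671% in either direction in APP/PS1 cells.

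At 4 and 12 months the further mature oligodendrocyte genes were mostly called lower where they were called. In Ki67+ against Ki67- cells 2 of 36 were higher and 10 lower in WT mice of 4 months, 2 and 20 at 12 months, 1 and 12 in APP/PS1 mice of 4 months and 2 and 6 at 12 months, while at 6 months 18 were higher and 1 lower in WT, and 16 higher and 0 lower in APP/PS1. Of 9 precursor genes 6, 3 and 5 were higher and 2, 2 and 2 lower in WT Ki67+ cells of 4, 6 and 12 months, and in APP/PS1 mice 4, 3 and 3 were higher at these ages and 0 lower. Limma called 19.3% of all tested genes higher and 14.5% lower for the 4-month WT contrast, and 26.2% and 20.1% for the 12-month one. The transgenic shares were 12.3% and 9.24% (4 months) and 10.6% and 7.24% (12 months). For 6 months only shares in either direction are given, 36.8% (WT) and 7.81% (APP/PS1). At 4 and 12 months the lower counts of mature genes lay above these shares and the higher counts below. The 2 precursor genes lower in WT cells there lay near them. The difference between the 2 lists was not tested.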
